A study of Mus musculus with 12 samples.

Results

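The genes described are those of the receptors for glutamate and GABA, the main excitatory and inhibitory transmitters of the brain. They were chosen by symbol, as the protein-coding genes of the ionotropic glutamate receptors (AMPA, kainate and NMDA subunits), the metabotropic glutamate (mGlu) receptors, the GABA-A receptor subunits and the GABA-B receptors, with at least 10 counts in 3 or more libraries. Of 54532 genes listed, 21918 of them protein-coding, 45 matched the symbols and 40 passed the count rule. The other 5 were Gabra6 and Gabrr1, which reached 10 counts in 1 library each, and Grm6, Gabrp and Gabrr3, which never exceeded 1 count. Just inside the rule were Gabre with 6 libraries at 10 counts or more, Gabrr2 with 8 and Gabrq with 9, and the remaining 37 reached it in all 12.

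The study sequenced polyA+ RNA of C57BL/6J mouse striatum in 4 groups of 3 libraries. Both SN011 groups had transient middle cerebral artery occlusion (tMCAO), a stroke model in which a filament blocks the artery that supplies most of the striatum and is then withdrawn, and were given SN-011, a compound that blocks STING, the protein through which cells respond to stray DNA. One of them carries the prefix 3d in its title (3d-SN011) and the other does not (SN011). The vehicle group had tMCAO with PBS and the sham group had sham surgery with PBS. The labels do not explain the prefix, and no vehicle or sham group carries it, so that SN-011 and whatever 3d stands for cannot be told apart in the 3d-SN011 group. They give no age or sex. Nor do they tie each library to its own mouse, and p-values therefore reflect only how libraries vary, which may be technical. Totals ran from 15806076 to 18622053 counts per library. Levels are given as CPM, read counts relative to the library total after TMM scaling, and levels are compared between genes only as CPM per kilobase of exon (CPM per kb). Exon length was the union of all annotated exons of a gene, whichever transcript they belong to. It was 24842 bases for Grin2b and 5037 for Grin2c, so shares, sums and ranks per length depend on the annotation. A gene was called where its p from the edgeR quasi-likelihood test, adjusted by Benjamini-Hochberg over all 18537 genes tested, was under 0.05. All 40 receptor genes were among those tested.

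AMPA, kainate and NMDA receptors are ion channels built of several subunits that glutamate opens. AMPA receptors carry most fast excitatory current, and NMDA receptors pass calcium and set off plasticity and, when overactive in ischemia, neuronal injury. The mGlu receptors signal through G proteins. GABA-A receptors are chloride channels of several subunits, and GABA-B receptors are G protein-coupled dimers of Gabbr1 and Gabbr2. The striatum consists largely of GABA-releasing projection neurons that receive glutamate from cortex and thalamus. All 11 genes listed for striatal projection neurons, such as Drd1, Adora2a and Ppp1r1b, were detected in every group. They summed to 377 to 2287 CPM in 3d-SN011, 5396 to 9655 in SN011, 9356 to 9767 in vehicle and 9146 to 9815 in sham. Detection alone does not show that the 3d-SN011 tissue matched its label.

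In the 3d-SN011 libraries most receptor transcripts were far below their levels in the other groups. Against vehicle 29 of the 40 genes were lower, 1 was higher and 10 were not called, with a median log2 fold change of -1.65. Over all genes tested 28.2% were called lower and 28.9% higher in the same comparison, and the median was 0.01. Against sham 29 were lower and 0 higher, with a median of -1.66, where 27.9% of all genes were called lower and 29.8% higher, and 29 did not overlap in the lower direction, beside 31.5% of all genes. Between 3d-SN011 and the vehicle libraries 29 receptor genes did not overlap in the lower direction and 1 in the higher, beside 30% and 29.5% of all genes. The comparisons with vehicle and with sham share the 3d-SN011 libraries and do not stand as repeats of each other.

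Summed over the 40 genes, the receptor level was 298 ± 80.1 CPM per kb in 3d-SN011, 748 ± 137 in SN011, 869 ± 24.5 in vehicle and 905 ± 13.9 in sham (SD, n = 3 each). The 3d-SN011 mean was 32.9% of the sham mean. Its 3 libraries stood at 209.9, 316 and 367 CPM per kb, all below the lowest SN011 library at 599.9. Glutamate receptor genes were at 34.8% of the sham sum and GABA receptor genes at 30.5%. By family the 3d-SN011 sum lay between 17.8% of sham for mGlu group III and 67.8% for mGlu group II.

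**Figure D1:**
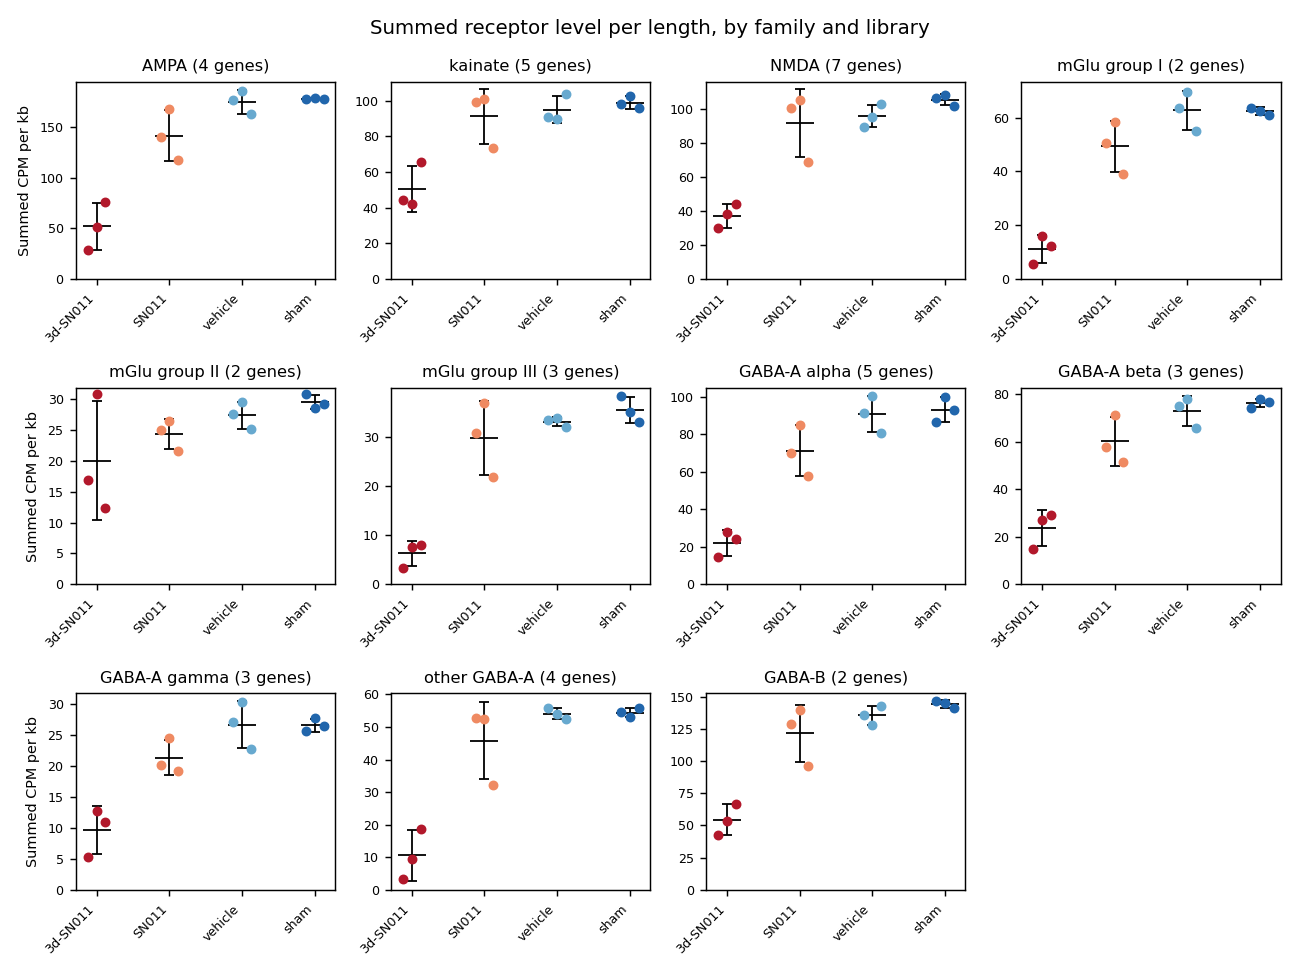
Summed level of the receptor genes of each family, in CPM per kb of exon, for the 3 libraries (points) of 3d-SN011, SN011, vehicle and sham, with the mean and SD in black. The 3d-SN011 points lie below those of every other group in all families except mGlu group II, where replicate 2 reached the level of the other groups.

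The libraries of an arm did not lie equally low. Of the 29 genes lower than in vehicle, 3d-SN011 replicate 1 held the lowest 3d-SN011 value for 24 and replicate 3 the highest for 20. Among the SN011 libraries replicate 3 was the lowest for 25 of those genes and replicate 2 the highest for 26. SN011 replicate 3 also stood apart in cell-type markers, with a summed level of 1371 CPM for the 8 microglia and macrophage markers, against 411 and 546 CPM in the other SN011 libraries. Without SN011 replicate 3 the counts of receptor genes called became 28 against SN011 and stayed at 30 against vehicle and 29 against sham for 3d-SN011. Without 3d-SN011 replicate 1 they were 27 against vehicle and 30 against sham.

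**Figure D2:**
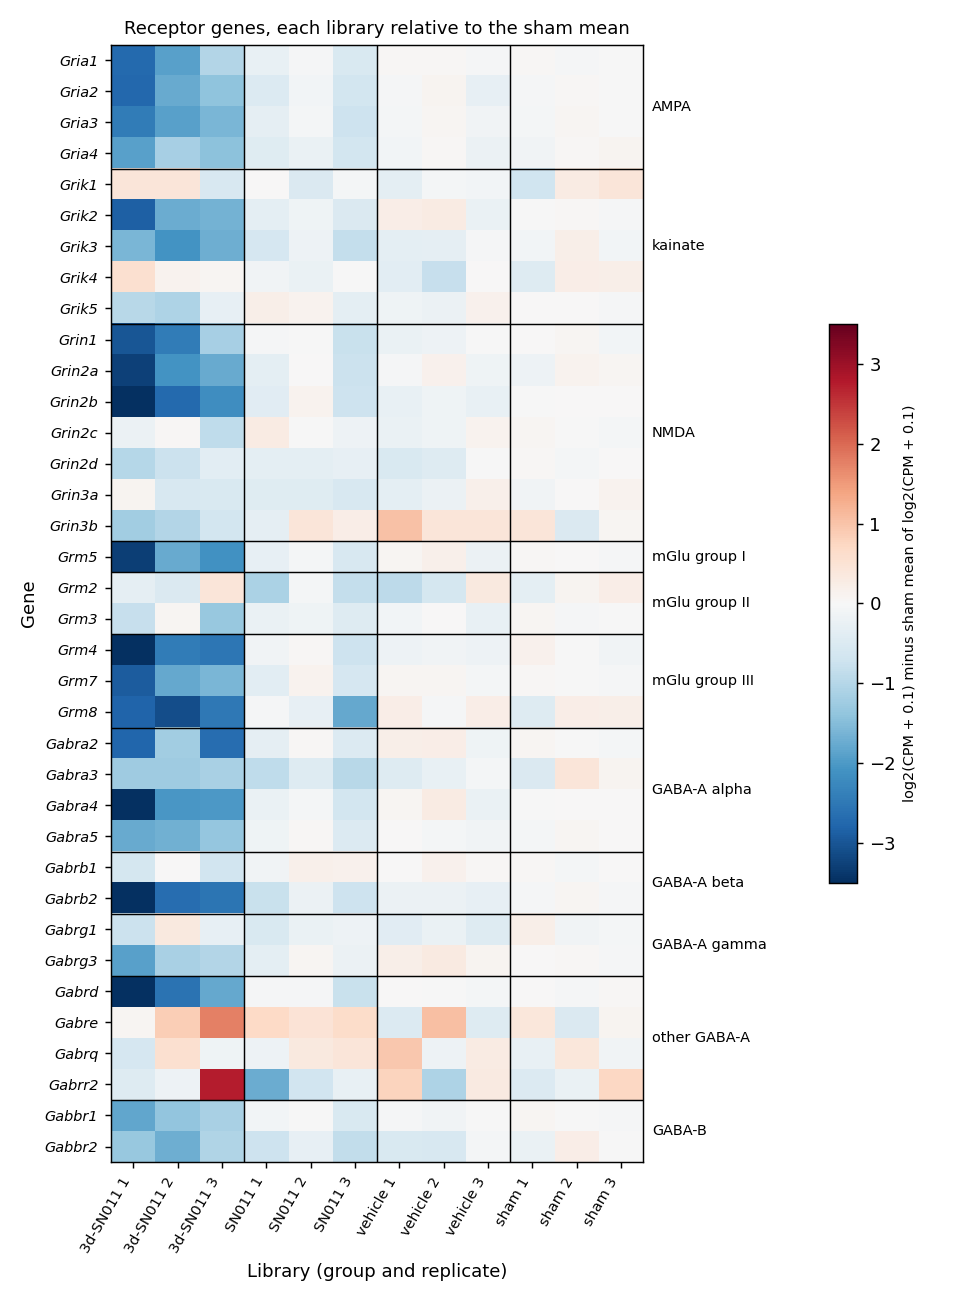
Level of 36 receptor genes (rows, grouped by family) in each library (columns), as log2(CPM + 0.1) minus the sham mean, with blue for lower and red for higher. The 3 columns of 3d-SN011 at the left are blue for most rows, with Grik1, Grik4, Grm2, Gabrg1, Gabre, Gabrq and Gabrr2 among the exceptions.

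Marker levels of several cell types also differed from vehicle, some in the direction of the receptor genes and others in the opposite direction. All 10 general neuronal markers and all 11 projection-neuron markers were lower in 3d-SN011 than in vehicle, with median log2 fold changes of -1.60 and -2.84. The general neuronal markers summed to 1190.0 to 2087 CPM in 3d-SN011, 3306 to 4896 in SN011, 4893 to 5119.8 in vehicle and 4976 to 5578 in sham. Of 6 interneuron markers 3 were lower, with sums of 97.5 to 208 CPM in 3d-SN011, 250.1 to 305 in SN011, 280.4 to 335 in vehicle and 313 to 324 in sham. All 8 microglia and macrophage markers were higher (median 3.08), with sums of 2442 to 3682 CPM in 3d-SN011, 411 to 1371 in SN011, 288 to 352 in vehicle and 310.0 to 352 in sham. Of 8 astrocyte markers 7 were higher (median 1.39), with sums of 6154 to 7933 CPM in 3d-SN011, 4912 to 5968 in SN011, 4489 to 4534 in vehicle and 4847 to 5122 in sham, and 5 of 6 oligodendrocyte markers were higher, with sums of 14952 to 23737 CPM in 3d-SN011, 8327 to 12247 in SN011, 8720.4 to 10797 in vehicle and 9247 to 11849 in sham. All 5 markers of oligodendrocyte precursors, 3 of 5 endothelial and 3 of 4 mural markers were higher as well. Of markers for tissue next to the striatum, 0 of 7 for cortical projection neurons were called, 2 of 4 tested for thalamus were higher, and 2 of 5 for choroid plexus and ependyma were lower and 2 higher. Thalamus sums were 125 to 133 CPM in 3d-SN011, 30.6 to 72.4 in SN011, 27.4 to 40.5 in vehicle and 25.7 to 29.2 in sham. The thalamus genes tested did not all go the same way, with log2 fold changes against vehicle from -1.03 to 2.64. Cortical sums were 74.9 to 275 CPM in 3d-SN011, 94.3 to 179 in SN011, 42.3 to 371 in vehicle and 102 to 427 in sham. Choroid-plexus sums were 106 to 817 CPM in 3d-SN011, 1022 to 2944 in SN011, 1296 to 2641 in vehicle and 110 to 2448 in sham. No marker of these lists was at 0 in every library of a group. In bulk tissue, fewer neurons and less receptor RNA per neuron cannot be told apart. The part of these differences in cell-type and neighbouring-tissue markers in the receptor values was not tested.

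**Figure D3:**
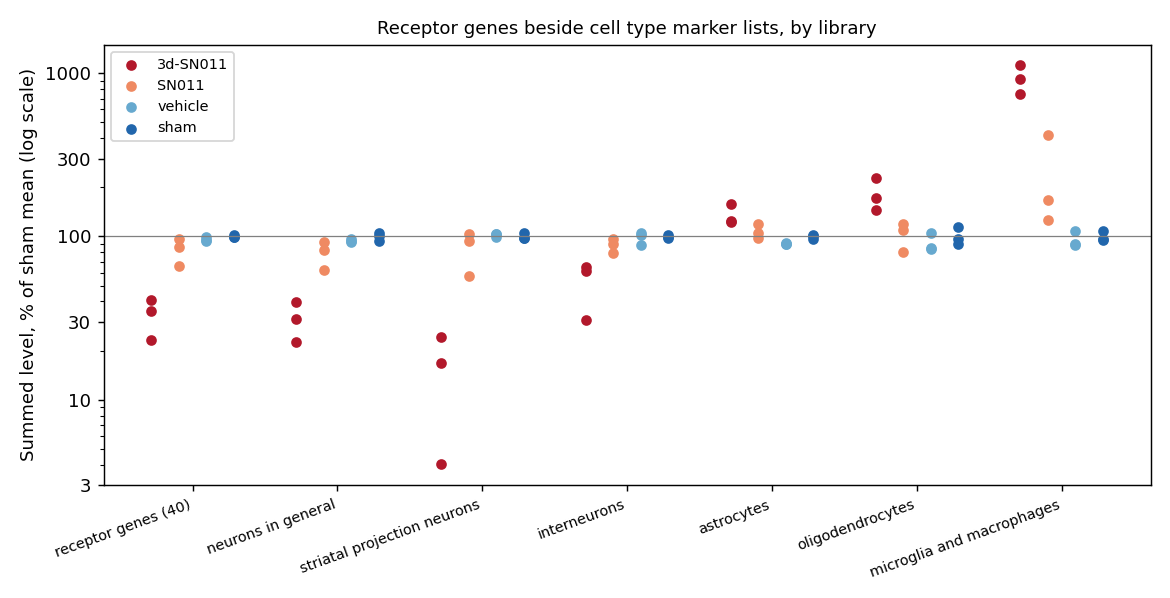
Summed level of the 40 receptor genes (CPM per kb) and of marker lists of cell types (CPM, not divided by length) in each library. Both are given as a percentage of the sham mean on a log axis, coloured by group. In 3d-SN011 the receptor genes and the neuronal lists lie below 100 and the astrocyte, oligodendrocyte and microglia lists above it, and SN011 replicate 3 lies between the other SN011 libraries and 3d-SN011 for the receptor, neuronal and microglia lists.

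AMPA receptor genes were all lower in 3d-SN011. The family has 4 members, of which Gria1 (ENSMUSG00000020524, chr11:57011387-57330244, plus strand) had the highest level per length in sham. Gria1 stood at 78.1, 139 and 255 CPM in the 3d-SN011 libraries, 432, 501 and 361 CPM in SN011, 534, 537 and 509 CPM in vehicle and 539.9, 506 and 516 CPM in sham. The 3d-SN011 values did not overlap those of any other group. Gria2, whose edited subunit makes the channel nearly impermeable to calcium, was lower as well. Gria2 stood at 124, 245 and 314 CPM in the 3d-SN011 libraries, 600.1, 777 and 537 CPM in SN011, 813, 889 and 687 CPM in vehicle and 814, 859.7 and 833 CPM in sham. Gria3 was at 42.7, 63.5 and 78.2 CPM in the 3d-SN011 libraries, 189.6, 223 and 143 CPM in SN011, 225, 245 and 216 CPM in vehicle and 226, 247 and 235 CPM in sham. Both genes had every 3d-SN011 library below every other library. By the quasi-likelihood F test of edgeR the log2 fold changes against vehicle were -1.74 (SE 0.31) for Gria1, -1.81 (SE 0.27) for Gria2, -1.89 (SE 0.21) for Gria3 and -1.39 (SE 0.17) for Gria4, with adjusted p from 1.87e-05 to 0.000425. Against sham they were -1.73, -1.87, -1.94 and -1.48 in the same order. Gria2 is at chr3:80681450-80802835 and Gria3 at chrX:41400854-41678601.

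Within the AMPA family the share of Gria1 overlapped between all groups. Gria1 made up 48.4% ± 6.53 in 3d-SN011, 50.5% ± 0.861 in SN011, 49.98% ± 1.95 in vehicle and 48.5% ± 1.76 in sham (SD, n = 3 each) of the summed AMPA level per length. Gria4, a subunit prominent in interneurons, ranged over 23.5 to 38.9 CPM in 3d-SN011, 55.7 to 74.8 CPM in SN011, 75.9 to 90.2 CPM in vehicle and 79.8 to 93.4 CPM in sham. Its share of the family was 12.9% and 12.04% in 3d-SN011 replicates 1 and 2 and 6.73% in replicate 3, against 7.09% to 8.35% over the other groups. The log2 ratio of Gria4 to Gria2 differed by 0.48 from vehicle and overlapped it (exact permutation test, two-sided, p = 0.2).

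Kainate receptor genes split by member. Of 5 genes, Grik2, Grik3 and Grik5 were lower than in vehicle, Grik4 was higher and Grik1 was not called. Grik2 (ENSMUSG00000056073, chr10:49094833-49788766, minus strand) encodes a principal subunit that can form channels by itself. Grik2 stood at 27.8, 60.99 and 64.1 CPM in the 3d-SN011 libraries, 159.9, 183 and 144 CPM in SN011, 239.6, 248 and 171 CPM in vehicle and 202, 208 and 198 CPM in sham. Grik3 had 50.5, 35.4 and 46.7 CPM in the 3d-SN011 libraries, 102, 135 and 84.9 CPM in SN011, 119.8, 123 and 147 CPM in vehicle and 142, 174 and 142 CPM in sham. The 3d-SN011 values of both lay below all others, and the log2 fold changes against vehicle were -2.11 (SE 0.26) for Grik2 and -1.56 (SE 0.18) for Grik3 (quasi-likelihood F test of edgeR, adjusted p = 3.31e-05 and 2.67e-05).

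Grik5 (ENSMUSG00000003378, chr7:25009849-25072346, minus strand) encodes a high-affinity subunit and had the highest level of the family per length. Grik5 stood at 170.0, 157 and 274 CPM in the 3d-SN011 libraries, 381, 363 and 263 CPM in SN011, 299, 289.6 and 371 CPM in vehicle and 338, 335 and 322 CPM in sham. Its 3d-SN011 replicate 3, at 274 CPM, was above SN011 replicate 3 but below every vehicle and sham library. The log2 fold change was -0.68 (SE 0.21) against vehicle by the quasi-likelihood F test of edgeR, adjusted p = 0.0139, and the adjusted p became 0.0508 to 0.0590 without 3d-SN011 replicate 1, 3d-SN011 replicate 2 or vehicle replicate 3. Grik5 made up 76.1% ± 4.28 in 3d-SN011, 70.9% ± 2.82 in SN011, 64.99% ± 3.802 in vehicle and 64.8% ± 1.78 in sham (SD, n = 3 each) of the kainate sum.

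Grik4, the other high-affinity subunit (chr9:42518135-42944493), was the one receptor gene called higher than in vehicle. Grik4 reached 17.9, 13.1 and 12.8 CPM in the 3d-SN011 libraries, 11.03, 10.4 and 11.9 CPM in SN011, 9.37, 6.898 and 12.3 CPM in vehicle and 8.86, 14.2 and 14.1 CPM in sham. The 3d-SN011 libraries were above the 3 vehicle libraries and overlapped sham. The log2 fold change was 0.62 (SE 0.24) against vehicle (quasi-likelihood F test of edgeR, adjusted p = 0.0429) and 0.24 against sham (adjusted p = 0.413 by the same test). The call was lost in 7 of the 12 fits that left out 1 library, with adjusted p up to 0.173 without vehicle replicate 2, and in the fit of the 6 libraries compared (adjusted p = 0.0847). Grik1 was low, at 1.94 to 4.004 CPM in 3d-SN011, 2.05 to 2.95 CPM in SN011, 2.31 to 2.798 CPM in vehicle and 1.76 to 3.99 CPM in sham, and was not called in any comparison.

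NMDA receptor genes also split by member. Every NMDA receptor holds Grin1 together with Grin2 or Grin3 subunits, which set its kinetics and block by magnesium. Grin1, Grin2a, Grin2b and Grin3b were lower than in vehicle, and Grin2c, Grin2d and Grin3a were not called. Grin1 (ENSMUSG00000026959, chr2:25291181-25319187, minus strand) is the obligatory subunit. Grin1 stood at 62.6, 91.9 and 221 CPM in the 3d-SN011 libraries, 488, 491 and 289.7 CPM in SN011, 421, 442 and 494 CPM in vehicle and 508, 521 and 469 CPM in sham. All 3d-SN011 values were below the rest, and they spread widely among themselves. The log2 fold change against vehicle was -1.85 (SE 0.37; quasi-likelihood F test of edgeR, adjusted p = 0.000885) and was -2.55 without 3d-SN011 replicate 3. Against sham it was -1.99, and -2.69 without that library.

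Grin2b (ENSMUSG00000030209, chr6:135713233-136173511, minus strand) and Grin2a (ENSMUSG00000059003, chr16:9567898-9995560, minus strand) encode the subunits of most forebrain NMDA receptors. Grin2b stood at 49.2, 84.6 and 122 CPM in the 3d-SN011 libraries, 422, 601 and 336 CPM in SN011, 460.0, 499.6 and 466 CPM in vehicle and 547, 557 and 556 CPM in sham. Grin2a was at 13.3, 30.2 and 37.9 CPM in the 3d-SN011 libraries, 103, 131 and 76.8 CPM in SN011, 125, 145 and 118 CPM in vehicle and 115, 141 and 135 CPM in sham. Neither gene overlapped between 3d-SN011 and any other group. The fold changes against vehicle were -2.48 (SE 0.28) for Grin2b and -2.25 (SE 0.30) for Grin2a on the log2 scale (quasi-likelihood F test of edgeR, adjusted p = 2.31e-05 and 5.94e-05). Grin2b was 5.57-fold and Grin2a 4.76-fold lower by these estimates.

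Grin2c, which in forebrain is found mainly in astrocytes and interneurons, ran over 55.2 to 105 CPM in 3d-SN011, 90.5 to 124 CPM in SN011, 86.6 to 111 CPM in vehicle and 97.1 to 107 CPM in sham. Its log2 fold change against vehicle was -0.21 (SE 0.20), with adjusted p = 0.376 by the quasi-likelihood F test of edgeR. Without 3d-SN011 replicate 2 it was called lower than in sham, at -0.50 (adjusted p = 0.0483, same test). Grin2c made up 46.2% ± 18.5 in 3d-SN011, 23.1% ± 3.704 in SN011, 19.8% ± 1.32 in vehicle and 19.2% ± 0.701 in sham (SD, n = 3 each) of the NMDA level per length. The share was 59.03% and 54.7% in 3d-SN011 replicates 1 and 2 and 24.95% in replicate 3, which was below SN011 replicate 3. Grin1 made up 32.8% ± 16.6 in 3d-SN011, 46.99% ± 3.42 in SN011, 48.5% ± 0.913 in vehicle and 48.7% ± 1.18 in sham (SD, n = 3 each) and Grin2b 8.92% ± 2.28 in 3d-SN011, 19.8% ± 3.03 in SN011, 19.96% ± 1.52 in vehicle and 21.1% ± 0.719 in sham (SD, n = 3 each).

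Grin2d, a subunit of slow receptors, was called lower against sham with a log2 fold change of -0.69 (quasi-likelihood F test of edgeR, adjusted p = 0.00688) and had -0.38 against vehicle (adjusted p = 0.0991 by the same test). Without 3d-SN011 replicate 3 it was called against vehicle as well, at -0.57. It ranged over 7.52 to 11.5 CPM in 3d-SN011, 11.8 to 12.4 CPM in SN011, 10.4 to 14.99 CPM in vehicle and 14.4 to 15.5 CPM in sham. Grin3a, a glycine-binding subunit, was not called, at 13.9 to 21.95 CPM in 3d-SN011, 13.8 to 15.2 CPM in SN011, 16.2 to 23.2 CPM in vehicle and 18.7 to 22.2 CPM in sham, although it was called lower than in sham without 3d-SN011 replicate 1 (-0.55). Grin3b, a related subunit better known from motor neurons, was low, at 0.512 to 0.808 CPM in 3d-SN011, 1.04 to 1.81 CPM in SN011, 1.802 to 2.81 CPM in vehicle and 0.909 to 1.82 CPM in sham. Its log2 fold changes were -1.74 against vehicle and -1.101 against sham, and the call against sham was lost without any 1 of 4 libraries (adjusted p 0.0607 to 0.119, quasi-likelihood F test of edgeR) and with no filter on low counts (adjusted p = 0.0552). Exons of Grin3b overlap those of Tmem259 on the opposite strand over 1059 bases, those of Grin1 overlap Grin1os over 1307 and those of Grin2d overlap Gm45441 over 643. Whether counting used strand is not given in the sources used here, so reads of such partners cannot be told apart.

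Among metabotropic glutamate receptors, Grm5 of group I and the group III genes were lower and group II genes were not called. Group I receptors act through Gq and calcium stores. Grm5 (ENSMUSG00000049583, chr7:87584168-88134907, plus strand) is a group I receptor abundant in striatum. Grm5 stood at 48.9, 143 and 111 CPM in the 3d-SN011 libraries, 392, 456 and 327 CPM in SN011, 504, 549.5 and 420.2 CPM in vehicle and 493, 485 and 466 CPM in sham. The 3d-SN011 libraries did not overlap the others, and the log2 fold change against vehicle was -2.28 (SE 0.30; quasi-likelihood F test of edgeR, adjusted p = 4.87e-05).

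Group II receptors inhibit adenylyl cyclase, and Grm3 is also strong in astrocytes. Grm3 (ENSMUSG00000003974, chr5:9485541-9725170, minus strand) made up nearly the whole of the group II level. Grm3 stood at 49.7, 92.3 and 34.6 CPM in the 3d-SN011 libraries, 75.2, 78.4 and 64.7 CPM in SN011, 82.8, 88.3 and 73.6 CPM in vehicle and 92.02, 84.7 and 86.5 CPM in sham. Replicate 2 of 3d-SN011 was the highest library of the series for this gene, and the other 3d-SN011 libraries were the lowest. The log2 fold change was -0.47 (SE 0.26; quasi-likelihood F test of edgeR, adjusted p = 0.136) against vehicle and -0.57 (adjusted p = 0.0718 by the same test) against sham. Without 3d-SN011 replicate 2 Grm3 was called lower, at -0.95 against vehicle and -1.06 against sham, and it was called against sham with no filter (adjusted p = 0.0194) and with a replicate block (0.0302). Grm2 was low, at 2.57 to 5.01 CPM in 3d-SN011, 1.68 to 3.57 CPM in SN011, 1.94 to 4.76 CPM in vehicle and 2.91 to 4.42 CPM in sham, and was not called. Its exons overlap Gm28111 on the opposite strand over 470 bases.

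Group III receptors sit mainly on presynaptic terminals and inhibit release. All 3 members were lower. Grm4 stood at 10.9, 25.01 and 23.8 CPM in the 3d-SN011 libraries, 128, 141 and 83.1 CPM in SN011, 122, 126 and 122 CPM in vehicle and 154, 136 and 126 CPM in sham. Grm8 was at 0.819, 0.643 and 1.02 CPM in the 3d-SN011 libraries, 6.12, 5.15 and 1.75 CPM in SN011, 7.43, 6.05 and 7.46 CPM in vehicle and 4.61, 7.46 and 7.198 CPM in sham. In Grm4 and in Grm8 every 3d-SN011 library was below every other library. The log2 fold changes against vehicle were -2.63 (SE 0.27) for Grm4, -3.07 (SE 0.42) for Grm8 and -2.03 (SE 0.27) for Grm7 (quasi-likelihood F test of edgeR, adjusted p from 1.59e-05 to 6.57e-05). Grm4 is at chr17:27422387-27521403, Grm8 at chr6:27275119-28135178 and Grm7 at chr6:110645581-111567230. Grm8 counts were few, with at most 19 counts in a 3d-SN011 library. Grm7 ranged over 8.905 to 22.6 CPM in 3d-SN011, 45.5 to 74.2 CPM in SN011, 64.5 to 71.8 CPM in vehicle and 66.2 to 70.5 CPM in sham.

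**Figure D4:**
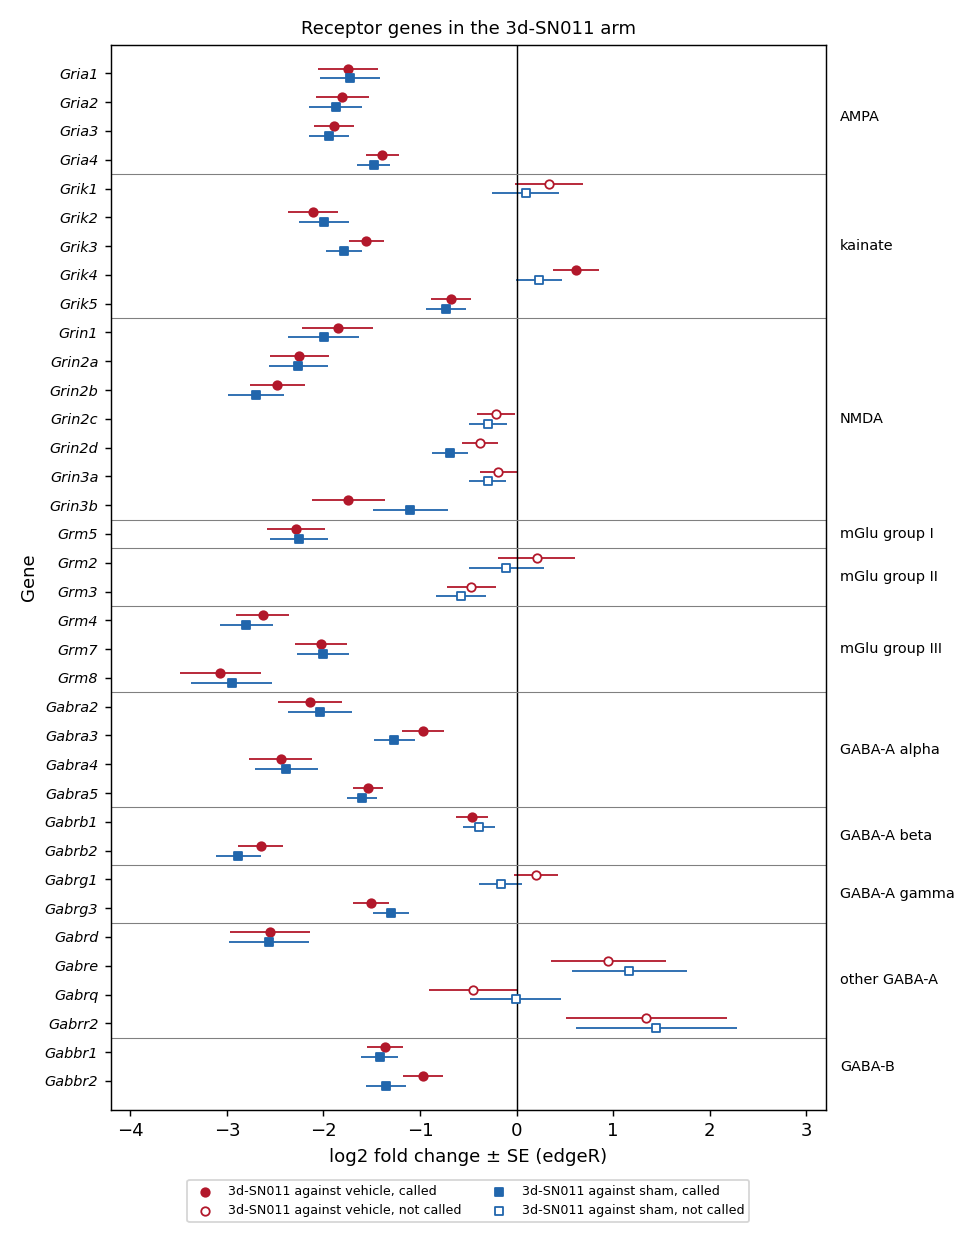
Log2 fold change with SE of 36 receptor genes in 3d-SN011 against vehicle (red circles) and against sham (blue squares), grouped by family, with filled symbols for genes called. Most filled symbols lie between -1 and -3.5, and the open symbols cluster around 0 except for the low-count genes Gabre and Gabrr2.

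GABA-A receptor genes fell in most subunit classes. A typical receptor pairs alpha and beta subunits with a gamma or delta subunit, and the alpha subunit and the gamma or delta position decide drug response and location at or away from the synapse. Gabra2 to Gabra5, Gabrb1, Gabrb2, Gabrg3 and Gabrd were lower than in vehicle. Gabrg1, Gabre, Gabrq and Gabrr2 were not called.

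Gabra4 (ENSMUSG00000029211, chr5:71569749-71658308, minus strand), which with Gabrd forms receptors outside synapses, had the highest alpha level per length in sham. Gabra4 stood at 18.7, 55.5 and 56.3 CPM in the 3d-SN011 libraries, 192, 218 and 146 CPM in SN011, 237, 279 and 193 CPM in vehicle and 223, 229.8 and 228 CPM in sham. Gabra2 stood at 15.7, 45.9 and 16.9 CPM in the 3d-SN011 libraries, 86.1, 110.1 and 77.6 CPM in SN011, 124, 126 and 97.2 CPM in vehicle and 113, 107 and 102 CPM in sham. No 3d-SN011 library overlapped another group in either gene. The log2 fold changes against vehicle were -2.44 (SE 0.33) for Gabra4, -2.14 (SE 0.33) for Gabra2, -1.54 (SE 0.16) for Gabra5 and -0.97 (SE 0.21) for Gabra3 (quasi-likelihood F test of edgeR, adjusted p from 1.59e-05 to 0.00196). Gabra2 was -2.83 against vehicle and -2.72 against sham without 3d-SN011 replicate 2, which stood at 45.9 CPM beside 15.7 and 16.9 CPM in replicates 1 and 3. Gabra3 fell least of these and ranged over 15.6 to 16.97 CPM in 3d-SN011, 18.96 to 27.2 CPM in SN011, 27.4 to 35.5 CPM in vehicle and 26.1 to 50.1 CPM in sham. Vehicle replicate 3 and sham replicates 2 and 3 were high for Gabra3, and the same libraries summed to 371, 427 and 301 CPM for the 7 cortical projection-neuron markers, against 42.3 to 102 CPM in the other vehicle and sham libraries. The part of this in the Gabra3 values was not tested.

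Among the beta genes Gabrb2 (ENSMUSG00000007653, chr11:42419757-42629028, plus strand) was lower. Gabrb2 stood at 7.06, 13.6 and 14.7 CPM in the 3d-SN011 libraries, 50.9, 75.3 and 52.6 CPM in SN011, 74.96, 76.003 and 70.98 CPM in vehicle and 84.01, 91.8 and 84.98 CPM in sham. All 3d-SN011 libraries were below all others, with a log2 fold change against vehicle of -2.65 (SE 0.23; quasi-likelihood F test of edgeR, adjusted p = 1.22e-05). Gabrb1 was much closer to the other groups, at 69.6 to 112 CPM in 3d-SN011, 102 to 126 CPM in SN011, 113 to 124 CPM in vehicle and 106 to 114 CPM in sham. Its log2 fold change was -0.46 against vehicle (quasi-likelihood F test of edgeR, adjusted p = 0.0282) and -0.39 against sham (adjusted p = 0.0569 by the same test), and the call against vehicle was lost without 3d-SN011 replicate 1 or 3 or vehicle replicate 1 or 2 (adjusted p 0.0506 to 0.103, quasi-likelihood F test of edgeR) and in the fit of the 6 libraries compared (adjusted p = 0.0680). Against sham it was called without 3d-SN011 replicate 2, at -0.65, and with a replicate block (adjusted p = 0.0389). Gabrb1 made up 27.3% ± 8.99 in 3d-SN011, 14.3% ± 2.62 in SN011, 11.6% ± 0.808 in vehicle and 10.5% ± 0.638 in sham (SD, n = 3 each) of the beta sum.

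Of the gamma genes, Gabrg3 (ENSMUSG00000055026, chr7:56716465-57387188, minus strand) was lower. Gabrg3 stood at 18.4, 31.1 and 33.7 CPM in the 3d-SN011 libraries, 54.2, 71.2 and 59.2 CPM in SN011, 78.9, 84.98 and 72.7 CPM in vehicle and 68.7, 69.6 and 66.4 CPM in sham. It did not overlap between 3d-SN011 and another group, with a log2 fold change against vehicle of -1.51 (SE 0.19; quasi-likelihood F test of edgeR, adjusted p = 3.6e-05). Gabrg1 ranged over 16.2 to 35.1 CPM in 3d-SN011, 19.1 to 24.2 CPM in SN011, 20.1 to 23.2 CPM in vehicle and 25.1 to 31.4 CPM in sham, and its 3d-SN011 libraries spanned the range of the others. It was called in no comparison, and leaving out 3d-SN011 replicate 2 gave a call of -0.52 against sham (adjusted p = 0.0250 by the quasi-likelihood F test of edgeR). Its share of the gamma level per length was 33.4% ± 6.59 in 3d-SN011, 13.4% ± 2.25 in SN011, 10.3% ± 0.845 in vehicle and 13.3% ± 2.13 in sham (SD, n = 3 each), and no 3d-SN011 library overlapped another group in that share.

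Gabrd (ENSMUSG00000029054, chr4:155384980-155398112, minus strand) encodes the delta subunit of receptors outside synapses and made up nearly all of the level of the remaining GABA-A genes. Gabrd stood at 8.495, 25.5 and 44.5 CPM in the 3d-SN011 libraries, 151, 149 and 90.5 CPM in SN011, 157, 154 and 149 CPM in vehicle and 156, 151 and 158 CPM in sham. No library of 3d-SN011 overlapped another group. The log2 fold change was -2.55 (SE 0.41) against vehicle (quasi-likelihood F test of edgeR, adjusted p = 0.000216) and was -3.17 without 3d-SN011 replicate 3. Against sham it was -2.56, and -3.19 without that library. Gabrr2, a rho subunit best known from retina, was at 5.92 CPM in 3d-SN011 replicate 3 and at 0.173 to 1.44 CPM in the other 11 libraries. It was called higher against SN011 (log2 fold change 2.43, adjusted p = 0.0408 by the quasi-likelihood F test of edgeR) and had 0.52 without that library (adjusted p = 0.558). Gabre and Gabrq stayed at or below 1.56 CPM in every library. Gabre was called higher without 1 library, at 1.82 against vehicle without vehicle replicate 2 and 1.52 against sham without 3d-SN011 replicate 1.

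Many GABA-A subunit genes lie in clusters. On chromosome 5, Gabrg1 (70751047 to 70842617), Gabra2 (70957597 to 71095849) and Gabra4 (71569749 to 71658308) lie on the minus strand and Gabrb1 (71658113 to 72149037) on the plus strand (GRCm38, GENCODE M21). Against vehicle their log2 fold changes were 0.20, -2.14, -2.44 and -0.46 in that order. The RefSeq start of Gabra4 and the RefSeq start of Gabrb1 with the lowest coordinate are 387 bases apart on opposite strands. Whether the fold changes of Gabra4 and Gabrb1 differed was not tested. Their annotated exons overlap over 46 bases. On chromosome 7, Gabrg3 and Gabra5 were lower, at -1.51 and -1.54. On chromosome X, Gabra3 was lower at -0.97, and its neighbours Gabre and Gabrq were near the limit of detection and not called.

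**Figure D5:**
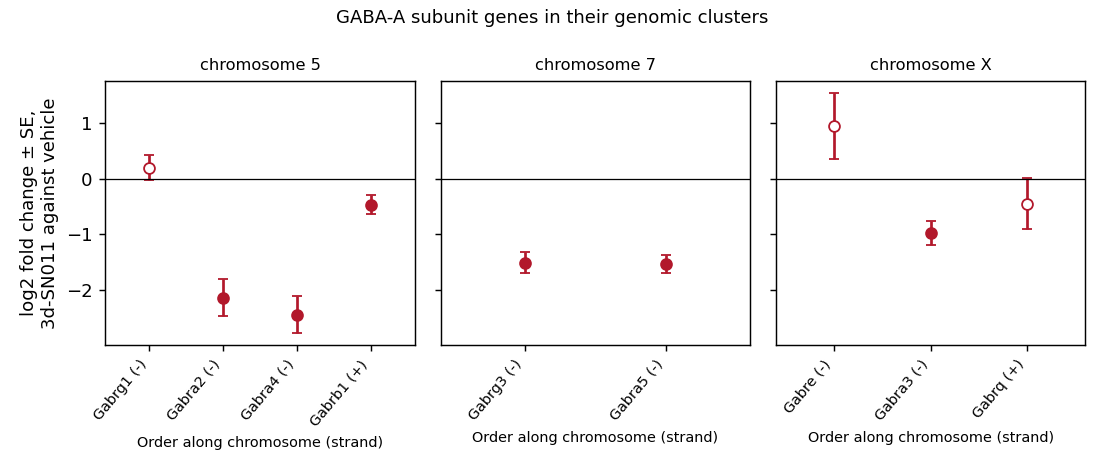
Log2 fold change with SE in 3d-SN011 against vehicle for GABA-A subunit genes in chromosomal order on chromosomes 5, 7 and X, with the strand in parentheses and filled points for genes called. On chromosome 5 Gabra2 and Gabra4 lie below -2, Gabrb1 lies at -0.46 with a filled point, and Gabrg1 at 0.20 with an open point.

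The starts of the 4 genes of the chromosome 5 cluster are shown because fold changes as far apart as those of Gabrg1 and Gabra2 lay side by side there. For Gabrb1 the RefSeq start with the lowest coordinate was taken. Each window runs from 250 bases before to 50 after the RefSeq start (GRCm38.p6), 5′ to 3′ on the gene's strand, with GC boxes (GGGCGG on either strand) in capitals.
Gabrg1, chr5:70842568-70842867, minus strand: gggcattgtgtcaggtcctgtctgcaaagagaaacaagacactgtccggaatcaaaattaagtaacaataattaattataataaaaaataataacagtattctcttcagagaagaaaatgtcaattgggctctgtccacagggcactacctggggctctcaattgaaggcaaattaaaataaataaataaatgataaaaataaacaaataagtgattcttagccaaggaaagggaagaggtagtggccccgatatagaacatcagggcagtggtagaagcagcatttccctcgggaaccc
Gabra2, chr5:71095800-71096099, minus strand: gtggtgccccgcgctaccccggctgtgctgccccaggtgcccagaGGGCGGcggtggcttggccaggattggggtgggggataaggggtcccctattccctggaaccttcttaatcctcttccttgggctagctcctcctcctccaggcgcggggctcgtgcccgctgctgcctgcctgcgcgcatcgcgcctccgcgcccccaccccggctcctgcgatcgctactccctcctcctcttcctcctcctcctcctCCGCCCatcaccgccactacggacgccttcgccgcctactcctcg
Gabra4, chr5:71658259-71658558, minus strand: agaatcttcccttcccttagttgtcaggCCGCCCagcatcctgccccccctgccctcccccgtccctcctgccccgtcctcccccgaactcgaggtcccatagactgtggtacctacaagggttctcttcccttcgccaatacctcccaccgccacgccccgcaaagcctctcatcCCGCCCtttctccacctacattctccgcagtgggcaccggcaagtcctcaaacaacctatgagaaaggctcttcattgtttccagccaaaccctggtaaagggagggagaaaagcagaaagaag
Gabrb1, chr5:71657671-71657970, plus strand: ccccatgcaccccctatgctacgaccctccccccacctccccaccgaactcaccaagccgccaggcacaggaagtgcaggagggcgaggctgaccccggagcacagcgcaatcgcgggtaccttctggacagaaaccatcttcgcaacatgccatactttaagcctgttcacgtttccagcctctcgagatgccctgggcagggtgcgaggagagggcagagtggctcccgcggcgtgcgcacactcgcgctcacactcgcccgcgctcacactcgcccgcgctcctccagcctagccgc
The Gabrg1 window held 3 CpG and 38.3% G and C, the Gabra2 window 25 CpG and 70% G and C, the Gabra4 window 12 CpG and 58.7% G and C, and the Gabrb1 window 25 CpG and 66% G and C. The median over all 32851 RefSeq windows was 7 CpG. Gabra2 and Gabra4 held 2 GC boxes each, and Gabrg1 and Gabrb1 held 0. Over all windows 35.7% held a GC box, and 18 of the 34 windows of the 27 receptor genes matched in RefSeq did (52.9%). The box was in 11 of 18 matched genes that were lower than in vehicle and in 6 of 9 that were not. A match of letters is a description of the window and no test of binding.

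Both GABA-B genes were lower. Gabbr1 (ENSMUSG00000024462, chr17:37045966-37075067, plus strand) encodes the subunit that binds GABA and had the highest level per length of all receptor genes in sham, at 126 ± 4.63 CPM per kb (SD, n = 3). Gabbr1 stood at 275, 373 and 448 CPM in the 3d-SN011 libraries, 912, 963 and 668 CPM in SN011, 952, 898 and 969 CPM in vehicle and 1017, 959 and 952 CPM in sham. Gabbr2 (ENSMUSG00000039809, chr4:46662305-46991873, minus strand) encodes the partner that couples to the G protein. Gabbr2 stood at 49.4, 37.8 and 59.9 CPM in the 3d-SN011 libraries, 74.99, 102 and 67.7 CPM in SN011, 85.5, 84.01 and 118 CPM in vehicle and 105, 146 and 124 CPM in sham. The 3d-SN011 libraries were below all others in both genes. The log2 fold changes against vehicle were -1.36 (SE 0.19) for Gabbr1 and -0.97 (SE 0.21) for Gabbr2 (quasi-likelihood F test of edgeR, adjusted p = 6.81e-05 and 0.00167), and against sham -1.42 and -1.35. As for Gabra3, Gabbr2 was higher in vehicle replicate 3 and sham replicates 2 and 3 than in the other vehicle and sham libraries.

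The order of levels per length in sham put Gabbr1 first, followed by Gria1 at 86.1 ± 2.89 and Grik5 at 64.2 ± 1.65 CPM per kb. Gabrd (53.8 ± 1.26), Gria2 (53.7 ± 1.49) and Grin1 (51.5 ± 2.77 CPM per kb) lay below these, and these 3 genes did not differ beyond their SD. In 3d-SN011 Gabbr1 (47.05 ± 11.1) and Grik5 (38.8 ± 12.3) led, followed by Gria1 (26.04 ± 14.9), Grm3 (19.3 ± 9.804) and Grin2c (16.5 ± 5.02 CPM per kb), with overlapping SDs between neighbours.

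Ratios of 2 subunits within a library do not depend on how the library was scaled, and 5 such pairs were compared with vehicle and with sham. With 3 libraries against 3 the exact permutation test cannot go below p = 0.1, and no pair could pass the threshold. The log2 ratio of Grm3 to Grm5 per length was 1.77, 1.12 and 0.07 in the 3d-SN011 libraries, -0.63, -0.79 and -0.59 in SN011, -0.86, -0.89 and -0.76 in vehicle and -0.67, -0.77 and -0.68 in sham. It was higher in every 3d-SN011 library than in any other, by 1.82 against vehicle on the log2 scale. It reached the smallest possible p of 0.1 in the two-sided exact test (0.333 after Benjamini-Hochberg adjustment over the 10 comparisons) against vehicle and against sham. Grin2a to Grin2b did so against sham, with a difference of 0.41. The ratios of Gria1 to Gria2, Gria4 to Gria2 and Gabbr1 to Gabbr2 overlapped between 3d-SN011 and both vehicle and sham.

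Genes that work with the receptors were more often lower than higher. Of 68 partner genes 67 were tested, and 42 were lower and 10 higher in 3d-SN011 than in vehicle, with a median log2 fold change of -1.03. Over all genes tested 28.2% were called lower and 28.9% higher there. Against sham 45 partner genes were lower and 10 higher, beside 27.9% and 29.8% of all genes. AMPA auxiliary subunits, which traffic and gate the channel, had 8 of 13 lower and 1 higher. The largest falls were -2.77 (SE 0.33) for Cacng3 and -2.65 (SE 0.34) for Gsg1l, and Shisa6 was higher (1.14). Both kainate auxiliary genes were lower, with -2.62 (SE 0.29) for Neto1 and -2.02 (SE 0.29) for Neto2. Scaffolds of the postsynaptic density had 12 of 16 lower and 1 higher. Homer1, which links mGlu receptors to calcium stores, was at -2.95 and Dlg4, the PSD-95 gene, at -1.85, while Homer3 was higher at 1.73. The delta receptor gene Grid1 was lower, with -1.498 (SE 0.24) for Grid1.

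On the GABA side, 7 of 9 anchoring and auxiliary genes were lower and 1 higher. Gephyrin (Gphn), the scaffold of inhibitory synapses, was at -1.04, and Gabarap, also an autophagy gene, was higher at 1.09. The GABA-B auxiliary genes split, with Kctd16 (-2.82) and Kctd8 (-2.23) lower and Kctd12 (1.05) and Kctd12b (1.17) higher. Of 8 genes of GABA synthesis, transport and breakdown 4 were lower and 1 higher, among them Gad1 (-2.22) and Gad2 (-1.84), which make GABA, and Slc32a1 (-1.94), which loads it into vesicles. Slc12a5, the exporter that keeps neuronal chloride low, was lower at -2.21, and of the 4 tested genes for ion gradients and the serine co-agonist 2 were lower and 1 higher.

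Glutamate supply and uptake genes had 3 lower and 3 higher of 9, near the shares of all genes (28.2% lower and 28.9% higher). Slc17a8, a vesicular glutamate transporter of cholinergic interneurons in striatum, was at -3.01 and the neuronal transporter Slc1a1 at -1.35. The astrocyte transporter Slc1a3 (1.37), glutamine synthetase Glul (0.74) and Slc1a4 (1.4998) were higher. Slc1a2, the other main astrocyte transporter, averaged 3121 CPM in 3d-SN011 and 3100.0 CPM in vehicle, with a log2 fold change of 0.01 (SE 0.15; quasi-likelihood F test of edgeR, adjusted p = 0.96).

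Against the SN011 group, 28 receptor genes were lower in 3d-SN011 and 1 was higher, with a median log2 fold change of -1.35, where 22.9% of all genes were called lower and 23.6% higher. Large falls were those of Grm4 at -2.56 and Grin2b at -2.41 (quasi-likelihood F test of edgeR, adjusted p = 8.06e-05 and 0.000109). Gabra3, lower against vehicle and sham, was at -0.46 here (adjusted p = 0.0985, same test) with all 3 3d-SN011 libraries below the SN011 libraries, and it was called without sham replicate 1 (adjusted p = 0.0448). The call of Gabrb1 against SN011 was lost without any 1 of 4 libraries, that of Grin3b without any 1 of 3, that of Gabrr2 without any 1 of 6 and that of Gabbr2 without SN011 replicate 2. In the fit of the 6 libraries compared the calls of Grik5, Gabrb1 and Gabrr2 were lost as well (adjusted p from 0.0501 to 0.101). Without 3d-SN011 replicate 2 Grm3 (-0.79) and Grin2c (-0.55) were called lower, and without replicate 3 Grin2d (-0.56). Among partner genes 41 were lower and 9 higher. The 2 SN011 arms differ in whatever the 3d prefix stands for, as far as the labels say.

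Between the SN011 and vehicle groups, 0 of the 40 receptor genes were called by edgeR, 1 had an unadjusted p under 0.05 and DESeq2 also called 0. Over all genes 0.0162% were called and 11.1% had an unadjusted p under 0.05. That count of 1 depended on the libraries fitted, at 0 to 9 when 1 library was left out, with 9 without 3d-SN011 replicate 1 beside 12.8% of all genes and 6 without SN011 replicate 2 beside 15.3%. It was 6 with the 6 libraries alone, beside 12.3% of all genes, 7 with no filter, beside 7.59%, and 14 in a fit of the 9 libraries outside the 3d-SN011 arm, beside 17%. The median log2 fold change over the receptor genes was -0.30, against -0.01 over all genes, and 34 of 40 were below 0 where 51.2% of all genes were. In 7 genes every SN011 library was below every vehicle library, beside 7.32% of all genes. Without SN011 replicate 3 the call count was again 0, the median was -0.16, 32 of 40 were below 0 and 7 did not overlap in the lower direction, beside 10.5% of all genes. The 1 gene with an unadjusted p under 0.05 in the main fit was of the GABA-A alpha family, and 0 were of the AMPA family. The AMPA gene Gria4, at 55.7 to 74.8 CPM in SN011 and 75.9 to 90.2 CPM in vehicle, had a log2 fold change of -0.34 (SE 0.17; quasi-likelihood F test of edgeR, adjusted p = 0.49). Among partner genes 0 were called by edgeR and 1 by DESeq2, and 5 had an unadjusted p under 0.05. The summed receptor level of the SN011 libraries was 776, 869 and 599.9 CPM per kb, against 867, 894 and 846 in vehicle.

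Against sham, 0 receptor genes were called in SN011 by edgeR, 7 had an unadjusted p under 0.05 and DESeq2 called 1, Gabra3. Over all genes 0.113% were called in either direction, and 12.8% had an unadjusted p under 0.05. The count of 7 was 1 to 13 when 1 library was left out, with 1 without sham replicate 2 beside 7.86% of all genes, 2 without SN011 replicate 3 beside 5.63%, 4 without SN011 replicate 1 beside 11.1% and 13 without 3d-SN011 replicate 1 beside 14.7%. It was 13 with the 6 libraries alone, beside 18.6% of all genes, and 17 in the fit of 9 libraries, beside 19.6%. The median over the receptor genes was -0.30, and 19 genes lay wholly below sham and 1 above, beside 12.9% and 12.8% of all genes. Gabra3 had a log2 fold change of -0.81 (SE 0.21; quasi-likelihood F test of edgeR, adjusted p = 0.122) and overlapped between the groups. Sham replicates 2 and 3, which were high for Gabra3, were also high for the cortical projection-neuron markers. The part of this in the difference was not tested. Without SN011 replicate 3 the call count was again 0, the median was -0.19 and 20 genes lay wholly below sham, beside 16.3% of all genes. Without SN011 replicate 2, Gabra3 at -0.99 and Grik3 at -0.71 were called lower, and Gabra3 was also called with no filter (adjusted p = 0.0104). Among partner genes 0 were called by edgeR and 1 by DESeq2, and 10 had an unadjusted p under 0.05.

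Between vehicle and sham, 0 of 40 receptor genes were called by edgeR, 0 had an unadjusted p under 0.05 and DESeq2 called 0, where 0% of all genes were called and 2.52% had an unadjusted p under 0.05. With the 6 libraries alone 5 of the 39 receptor genes then tested had one, beside 7.79% of all genes, and without 1 library 0 to 3 did. The summed receptor level was 869 ± 24.5 CPM per kb in vehicle and 905 ± 13.9 in sham (SD, n = 3 each). The log2 fold changes of the 40 genes ran from -0.38 for Gabbr2 and Grik4 to 0.64 for Grin3b. Among partner genes 0 were called by edgeR or DESeq2, and 4 had an unadjusted p under 0.05.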

How the data were processed

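PolyA+ RNA was read as paired ends on an Illumina HiSeq 2500, per the labels' protocols. The authors deposited whole-number read counts per Ensembl gene, for which the submitters' processing notes name mm10, HISAT2 and featureCounts. Their versions, the annotation and the use of strand were not given in the sources used here. Symbols, positions and exon lengths came from GENCODE M21.

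Genes were kept by filterByExpr with a minimum count of 10, and all 12 libraries were fitted together by group in edgeR 4.0.16 (R 4.3.3) with TMM scaling and quasi-likelihood tests, adjusted by Benjamini-Hochberg over 18537 genes. The SE of a log2 fold change is its absolute value divided by the square root of the F statistic. It therefore rests on a spread estimated over all groups together. Pair ratios used a pseudocount of 0.5 counts and the exact permutation test. Alternatives were RLE scaling, no filter, DESeq2 1.42.0, the 6 libraries compared, a replicate block and each library left out. The scripts were tested on simulated data. No library repeated another of its own group within sampling noise. Some receptor and partner genes are not reported here by name. For the others, values per library were given for the 2 called members of each family that changed most against vehicle, any called against its family's median, and the highest per length in sham. Members and lists were chosen with earlier results of these data known. Promoters came from the RefSeq table of GRCm38.p6.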

Additional observations from a re-analysis of the deposited data

How the results depend on the processing

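Receptor genes called in 3d-SN011 against vehicle numbered 30, and 28 to 30 with RLE scaling, no filter, DESeq2, a replicate block or the 6 libraries alone. Leaving out 1 library gave 27 to 30. Against sham the count was 29, with 29 to 31 under those settings and 28 to 32 without 1 library, and against SN011 it was 29, with 26 to 29 and 25 to 30. The replicate block gave 29 against vehicle, 31 against sham and 28 against SN011. Same-numbered libraries had correlations of -0.293 to 0.143 in their deviations from group means, so the numbers were not taken to pair them, and the block changed the calls of Grik4 against vehicle, Grm3 and Gabrb1 against sham and Gabrr2 against SN011. Partner genes called numbered 52 against vehicle, 55 against sham and 50 against SN011, and 42 against SN011 with the 6 libraries alone.

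Where 0 was called, some settings gave 1 or 2. In SN011 against vehicle, 1 partner gene was called with no filter and 1 by DESeq2. In SN011 against sham, 1 receptor gene was called with no filter, 1 by DESeq2 and 2 without SN011 replicate 2, so that leaving out 1 library gave 0 to 2. Partner genes there gave 1 by DESeq2 and 0 to 2 without 1 library, with 2 without SN011 replicate 2. A fit of 9 libraries without the 3d-SN011 arm, chosen after seeing the data, called 0 in each of these comparisons. Its genes with an unadjusted p under 0.05 were more numerous, with 14 receptor and 15 partner genes in SN011 against vehicle, where the fit of all 12 libraries gave 1 and 5, and 17 and 29 in SN011 against sham, where that fit gave 7 and 10. Partner genes with such a p numbered 1 to 11 and 3 to 19 without 1 library. The cause was not tested.

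Log2 fold changes that changed sign without 1 library were those of genes not called. Against vehicle the range was -0.15 to 0.43 for Gabrg1, -0.57 to 1.81 for Gabrr2, -0.42 to 0.00656 for Grin2c and -0.13 to 0.69 for Grm2. Against sham it was -0.52 to 0.061 for Gabrg1, -0.45 to 0.25 for Gabrq, -0.46 to 1.96 for Gabrr2, -0.20 to 0.36 for Grik1 and -0.45 to 0.076 for Grm2. The pair differences on the log2 scale that changed sign were Gria1 to Gria2 against vehicle (-0.16 to 0.11) and sham (-0.062 to 0.20) and Gabbr1 to Gabbr2 against sham (-0.29 to 0.13).

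With 3 libraries a group, changes of the low genes Gabre, Gabrq and Gabrr2 against vehicle or sham were not resolved. Grin3b and Grm8, also near 1 CPM in 3d-SN011, were called lower than in vehicle.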
